A study of Mus musculus with 18 samples.

Results

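This report describes 10 genes of iron uptake, iron export and hepcidin control in newborn mouse liver: Hamp, Hamp2, Bmp6, Id1, Hfe, Tfr2, Tmprss6, Tfrc, Slc11a2 and Slc40a1. They were chosen by name from the 31165 genes of the expression table, each symbol matched 1 row, and all 10 passed the filter on low values that 14104 genes passed. Livers came from C57BL/6J pups given intraperitoneal injections on postnatal days 1 and 3 of either a miR-497a-5p mimic or a scrambled control mimic, so every animal received a stabilized oligonucleotide and no uninjected liver was analysed here. The protocol mentions 100 and 10 mg per kg, and which of these a given library received is not repeated in its own labels. Livers were taken at postnatal day 5 (P5), 7 (P7) or 14 (P14), with 3 libraries for each injection at each age, 18 in all. The labels number the libraries of a group without saying that each is 1 animal, so p-values measure the spread between these libraries. Where a liver is counted below, 1 such library is meant.

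Hepatocytes secrete hepcidin, the peptide hormone that binds the iron exporter ferroportin on macrophages and gut cells and causes its degradation, which lowers plasma iron. In the mouse a pair of neighbouring genes, Hamp and Hamp2, encode hepcidin peptides. Hepcidin transcription is driven by BMP6, made mainly by liver sinusoidal endothelial cells, through BMP receptors and SMAD proteins in hepatocytes, with HFE and transferrin receptor 2 as sensors of iron-loaded transferrin and the protease matriptase-2 as a brake. Transferrin receptor 1 and DMT1 bring iron into cells, and iron regulatory proteins control the transcripts of iron genes by binding hairpins in their untranslated regions.

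Values are scaled counts, the authors' gene counts brought to a common library scale. Their totals ran from 3954405 to 4248257 per library, and the raw read depth is not known from them. The hepatocyte list (10 genes, Alb among them) summed to 13250 to 20026 scaled counts per library, with 0 of its genes listed at 0. The red cell list (15 genes) summed to 12135 to 17134 at P5, 8097 to 13591 at P7 and 836 to 1978 at P14. P7 scrambled replicates 2 and 3 stood apart: they listed 22132 and 30412 genes above 0, against 19198 to 20418 in the other 16 libraries. The skeletal muscle list (7 genes) summed to 1785 in P7 scrambled replicate 1 and 410 in replicate 3, against 14 to 80 in the other 16. Xist exceeded the Y-linked Ddx3y in 1 of 3 P5 scrambled, 2 of 3 P5 mimic, 2 of 3 P7 scrambled, 1 of 3 P7 mimic, 2 of 3 P14 scrambled and 1 of 3 P14 mimic libraries, so the sexes, as these genes mark them, were unequally divided between injections. In bulk tissue, fewer cells of a type and less RNA per cell cannot be told apart.

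The sequences below show what sets the hepcidin pair, the iron-responsive transcripts and the possible target apart. The mature miR-497a-5p (RefSeq, GRCm38.p6, chr11:70234730-70234751, plus strand) is given with its seed, bases 2 to 8, in capitals. Its 7-base match, TGCTGCT, was searched in the longest annotated 3′ UTR of each gene (GENCODE M21, GRCm38). Of the 10 iron genes only Hfe holds one, at chr13:23702580-23702586 on the minus strand, 1800 bases into a 3′ UTR of 2352 bases. Among 13175 tested genes with an annotated 3′ UTR, 24.3% hold at least 1.
miR-497a-5p: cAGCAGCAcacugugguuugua
Hfe site, capitals mark the match: gctggggtccTGCTGCTcattgttaat

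Hamp (ENSMUSG00000050440, chr7:30942368-30944032, minus strand) and Hamp2 (ENSMUSG00000056978, chr7:30922372-30924181, minus strand) are close copies, and their reads can be confused in counting. Their whole transcripts (GENCODE M21), 410 and 437 bases long, were 88.8% identical with a shared run of 87 bases. The sources used here do not say how reads that fit both genes were counted.

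The stretches upstream of both genes show where BMP and inflammatory signals are known to act on Hamp. The 250 bases before each RefSeq start site (GRCm38.p6) were 89.7% identical. Motifs were searched on both strands, with overlaps allowed. The BMP response element GGCGCC begins 109 bases before the Hamp start and has no match in the Hamp2 window. At the aligned position the Hamp2 letters carry G4A, counted from the 5′ end of the element. GGCGCC occurs in 9.59% of 32851 such windows, also in 1 of the Tfrc windows. The STAT element TTCNNNGAA begins 97 bases before the Hamp start and 94 before the Hamp2 start, and occurs in 7.02% of windows. The E-box CACGTG, searched in the same windows, occurs in 6.02% of them and, of the iron genes with a window (6 of 10), in that of Bmp6. Capitals mark GGCGCC and TTCNNNGAA.
Hamp upstream, chr7:30944030-30944279, minus strand: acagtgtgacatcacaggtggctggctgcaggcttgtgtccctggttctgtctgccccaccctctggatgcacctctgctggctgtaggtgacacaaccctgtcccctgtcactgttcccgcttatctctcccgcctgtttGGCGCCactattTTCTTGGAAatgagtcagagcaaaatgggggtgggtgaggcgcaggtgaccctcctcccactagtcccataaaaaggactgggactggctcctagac
Hamp2 upstream, chr7:30924182-30924431, minus strand: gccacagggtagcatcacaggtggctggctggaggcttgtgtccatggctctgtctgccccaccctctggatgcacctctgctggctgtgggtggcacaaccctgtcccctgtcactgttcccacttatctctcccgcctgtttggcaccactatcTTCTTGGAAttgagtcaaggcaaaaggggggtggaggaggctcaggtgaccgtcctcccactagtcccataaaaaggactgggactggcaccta

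Hairpins of the iron-responsive kind were searched in annotated UTRs as a C, then 5 bases, CAGTG and 6 bases, with the 5 bases on either side of the 6-base loop able to pair (G with T allowed). Tfrc (ENSMUSG00000022797, chr16:32608920-32632794, plus strand) holds 4 in its 3′ UTR. Slc40a1 (ENSMUSG00000025993, chr1:45908068-45925582, minus strand) holds 1 in its 5′ UTR. Of 13183 tested genes with a UTR, 0.956% hold such a hairpin in either UTR. A hairpin with a bulge or mismatch in that stem is missed by this search, so a gene without a match may still hold one. Capitals mark the loop.
Tfrc 3′ UTR, chr16:32631225-32631241, plus strand: cggaagCAGTGCcttcc
Tfrc 3′ UTR, chr16:32631604-32631620, plus strand: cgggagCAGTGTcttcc
Tfrc 3′ UTR, chr16:32631669-32631685, plus strand: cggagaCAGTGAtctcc
Tfrc 3′ UTR, chr16:32631716-32631732, plus strand: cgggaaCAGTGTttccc
Slc40a1 5′ UTR, chr1:45925471-45925487, minus strand: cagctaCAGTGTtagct

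With age, Hamp fell and Hamp2 rose in the same livers. Hamp is the main hepcidin gene. It read 185, 333 and 143 scaled counts in the P5 scrambled livers and 266, 159 and 280 in the P5 mimic livers. At P7 it read 247, 153 and 163 in scrambled and 35, 98 and 27 in mimic livers. At P14 it read 12, 91 and 31 in scrambled and 13, 23 and 7 in mimic livers. Every P14 value lies below every P5 value, and the share of all genes that separate in this way was not counted. The group means in order were P5 mimic (235 ± 66.2, SD, n = 3), P5 scrambled (220 ± 99.8), P7 scrambled (188 ± 51.6), P7 mimic (53.3 ± 38.9), P14 scrambled (44.7 ± 41.2) and P14 mimic (14.3 ± 8.08). The first 3 overlap one another, and so do neighbours among the last 3. Over both injections Hamp at P14 was 0.0993 times its P5 level (log2 difference -3.33, SE 0.40, limma adjusted p = 1.46e-06).

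Hamp2 read 2, 45 and 2 in P5 scrambled livers and 18, 6 and 1 in P5 mimic livers. At P7 it read 26, 5 and 1 in scrambled and 7, 23 and 7 in mimic livers. At P14 it read 17, 146 and 36 in scrambled and 70, 97 and 19 in mimic livers. The P14 libraries are the high ones, but single P5 and P7 libraries reach into their range. From P5 to P14 over both injections Hamp2 rose 7.06-fold (log2 difference 2.82, SE 0.78, limma adjusted p = 0.00569). Single values near 1 scaled count make this fold imprecise, with a 95% interval of 1.18 to 4.46 on the log2 scale.

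Bmp6 and Id1, the ligand and a direct target of the pathway, moved in opposite directions with age. Bmp6 (chr13:38345107-38500302) read 36, 24 and 22 in P5 scrambled and 29, 36 and 25 in P5 mimic livers. At P14 it read 40, 73 and 91 in scrambled and 48, 39 and 38 in mimic livers. All 6 P14 livers lie above all 6 P5 livers. Bmp6 rose 1.81-fold (log2 difference 0.85, SE 0.23, limma adjusted p = 0.00534). Txndc5, an abundant gene on the other strand that overlaps Bmp6, read 1040 to 1305 across the 18 libraries, and the sources used here do not say whether counting used strand. Id1 (chr2:152736251-152737410), an inhibitor of differentiation induced by BMP signals, read 230, 319 and 272 in P5 scrambled and 304, 239 and 324 in P5 mimic livers. At P14 it read 141, 145 and 182 in scrambled and 169, 127 and 144 in mimic livers. The 2 ages do not overlap. For Bmp6 and Id1, as for Hamp, the share of all genes with such a separation was not counted. Id1 at P14 was 0.541 times its P5 level (log2 difference -0.89, SE 0.13, limma adjusted p = 1.55e-05).

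These 4 genes were the ones called between P5 and P14, 2 higher and 2 lower. Of all genes tested, 48.8% were called in this comparison, 23.9% higher and 24.8% lower, so 4 of 10 is near the share among all genes. Tfrc differed by -0.27 on the log2 scale (SE 0.12, limma adjusted p = 0.0612), which missed the threshold as fitted. Some alternatives called Tfrc lower and others did not. The red cell list fell in the same comparison, 15 of 15 genes called lower with a median log2 difference of -4.92. With that list's level as a covariate, 0 iron genes were called and the Hamp difference was 2.59 (limma adjusted p = 0.805). Over all genes, calls in this comparison ran from 0 to 7678 across the settings other than single libraries left out (6878 as fitted). The list and age move together, and their parts cannot be told apart.

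**Figure D1:**
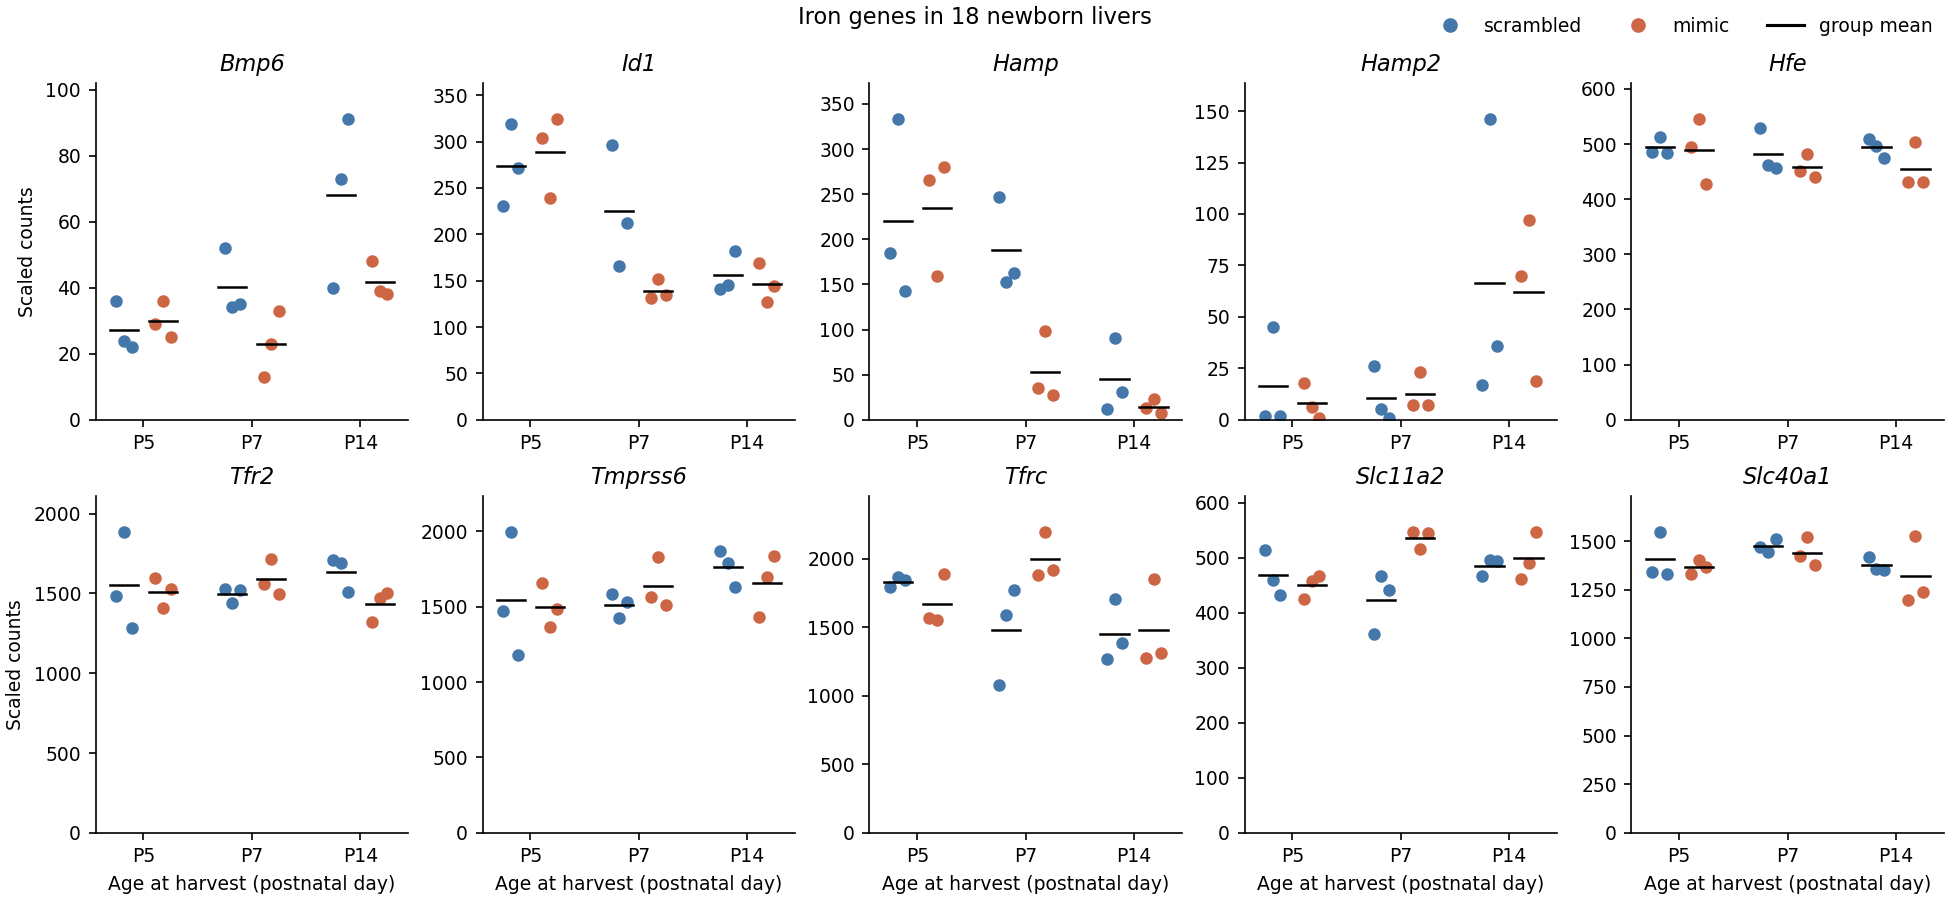
Scaled counts of the 10 iron genes (y axis, linear, each panel with its own scale from 0) by age at harvest (x axis), with 1 point per library, blue for scrambled and orange for mimic, and black bars for means of 3. Hamp reaches 333 at P5 and 7 at P14, Hamp2 is highest at P14, and Slc40a1 stays between 1197 and 1545.

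The steps between ages were taken within each injection. In scrambled livers P7 against P5 called 0 of the 10 genes and 0% of all genes, and at an unadjusted p under 0.05 it called 0 of 10 and 23.1% of all genes. There the log2 difference of Hamp was -0.17 (SE 0.57), that of Id1 -0.31 (SE 0.18), that of Bmp6 0.55 (SE 0.33) and that of Tfrc -0.34 (SE 0.16). From P7 to P14 the scrambled livers called 2 of 10 genes, against 33.8% of all genes. Hamp fell by 2.45 (SE 0.57, limma adjusted p = 0.00282) and Id1 fell by 0.49 on the log2 scale (SE 0.18, limma adjusted p = 0.0464). The Id1 call was lost when any 1 of 11 libraries was left out (adjusted p up to 0.251, without P7 scrambled replicate 1) with TMM scaling (0.0761) and with the replicate number as a block (0.0515). Hamp2 had a difference of 2.75 (SE 1.10, limma adjusted p = 0.0621) and Bmp6 of 0.69 (SE 0.33, adjusted p = 0.116).

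In mimic livers the first step called 2 of 10 genes, against 10.0% of all genes. From P5 to P7 Hamp fell by 2.30 (SE 0.57, limma adjusted p = 0.0211) and Id1 fell by 1.04 on the log2 scale (SE 0.18, limma adjusted p = 0.00762). The ages did not overlap for Hamp, Id1 and Slc11a2, 3 of 10 iron genes against 38.2% of all genes. Slc11a2 was higher at P7 (0.25, SE 0.10) and was not called (limma adjusted p = 0.0972). Bmp6 had a difference of -0.45 (SE 0.33) and Tfrc of 0.26 (SE 0.16), neither called. The Hamp call was lost without any 1 of P5 mimic replicates 1 and 3 and P7 mimic replicates 1 and 3 (adjusted p 0.0811 to 0.114), and the Id1 call without P5 mimic replicate 3 (0.0594) or P7 mimic replicate 1 (0.0535). P7 mimic replicates 1 and 3 also favoured long transcripts: the rank correlation of a library's relative level with transcript length was 0.504 and 0.483 there, against -0.311 to -0.0210 in the P5 mimic livers. With that correlation as a covariate Hamp had a difference of -1.52 (adjusted p = 0.486) and Id1 of -0.57 (adjusted p = 0.355), and 1 gene in all was called.

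From P7 to P14 the mimic livers called 3 of 10 genes, against 29.5% of all genes. Hamp fell by 1.74 on the log2 scale (SE 0.57, limma adjusted p = 0.0288). Tfrc, the transferrin receptor through which cells take up iron, fell by 0.45 (SE 0.16, limma adjusted p = 0.0446). Bmp6 rose by 0.91 (SE 0.33, limma adjusted p = 0.0446), and Hamp2 had a difference of 2.17 (SE 1.10, adjusted p = 0.142). The P7 and P14 livers did not overlap for Hamp, Tfrc and Bmp6, 3 of 10 iron genes against 43.5% of all genes. With the replicate number as a block the Bmp6 call was lost (adjusted p = 0.0577). Each of these calls was lost without single libraries, that of Hamp without P7 mimic replicate 2 (-1.19, adjusted p = 0.129) or P14 mimic replicate 1 or 3. The difference between the injections in these steps is tested by the day-by-mimic comparison below.

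The division of hepcidin reads between the copies was also compared. Relative to its mean, the Hamp2 share varied little within the P7 mimic and the P14 groups and widely within the other 3. Hamp2 made up 1.07, 11.9 and 1.38% of Hamp plus Hamp2 in P5 scrambled livers and 6.34, 3.64 and 0.356% in P5 mimic livers. At P7 its share was 9.52, 3.16 and 0.610% in scrambled and 16.7, 19.0 and 20.6% in mimic livers. At P14 it was 58.6, 61.6 and 53.7% in scrambled and 84.3, 80.8 and 73.1% in mimic livers. At P14 the sum of both genes ranged from 26 to 237 scaled counts while the share stayed within 53.7 to 84.3%. The share at P14 exceeded that at P7 by 53.6 percentage points in scrambled (SE 3.51) and 60.7 in mimic livers (SE 3.52). Each of these has an exact permutation p = 0.10, two-sided, the smallest that 3 against 3 libraries can give (0.129 adjusted over 9 comparisons).

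Mimic livers had the larger Hamp2 share at P7, by 14.3 percentage points (SE 2.88), and at P14, by 21.4 (SE 4.04), with no overlap on either day. Both have an exact permutation p = 0.10, the smallest possible, and 0.129 after adjustment. At P5 the difference was -1.34 points (exact permutation p = 0.80). At P7 and at P14 Xist exceeded Ddx3y in 1 of 3 mimic and 2 of 3 scrambled livers, and the part of sex in these values was not tested. The share does not depend on how a library is scaled, but it does depend on how reads common to both genes were counted.

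The copies were also summed, which counts reads of both genes and does not measure how much active hormone they encode. Hamp plus Hamp2 averaged 237 ± 124 scaled counts (SD, n = 3) in P5 scrambled, 198 ± 64.7 in P7 scrambled and 111 ± 111 in P14 scrambled livers. In mimic livers it averaged 243 ± 67.9, 65.7 ± 48.1 and 76.3 ± 47.4. At P7 the sums were 273, 158 and 164 in scrambled and 42, 121 and 34 in mimic livers, which do not overlap. The log2 difference was -1.76 (SE 0.61, exact permutation p = 0.10, the smallest possible, 0.30 adjusted over 9 comparisons). At P14 it was -0.27 (SE 1.09, exact permutation p = 0.90), and the sign rests on single libraries: leaving out P14 scrambled replicate 2 (237) gave 0.52, and leaving out P14 mimic replicate 3 (26) gave 0.36.

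**Figure D2:**
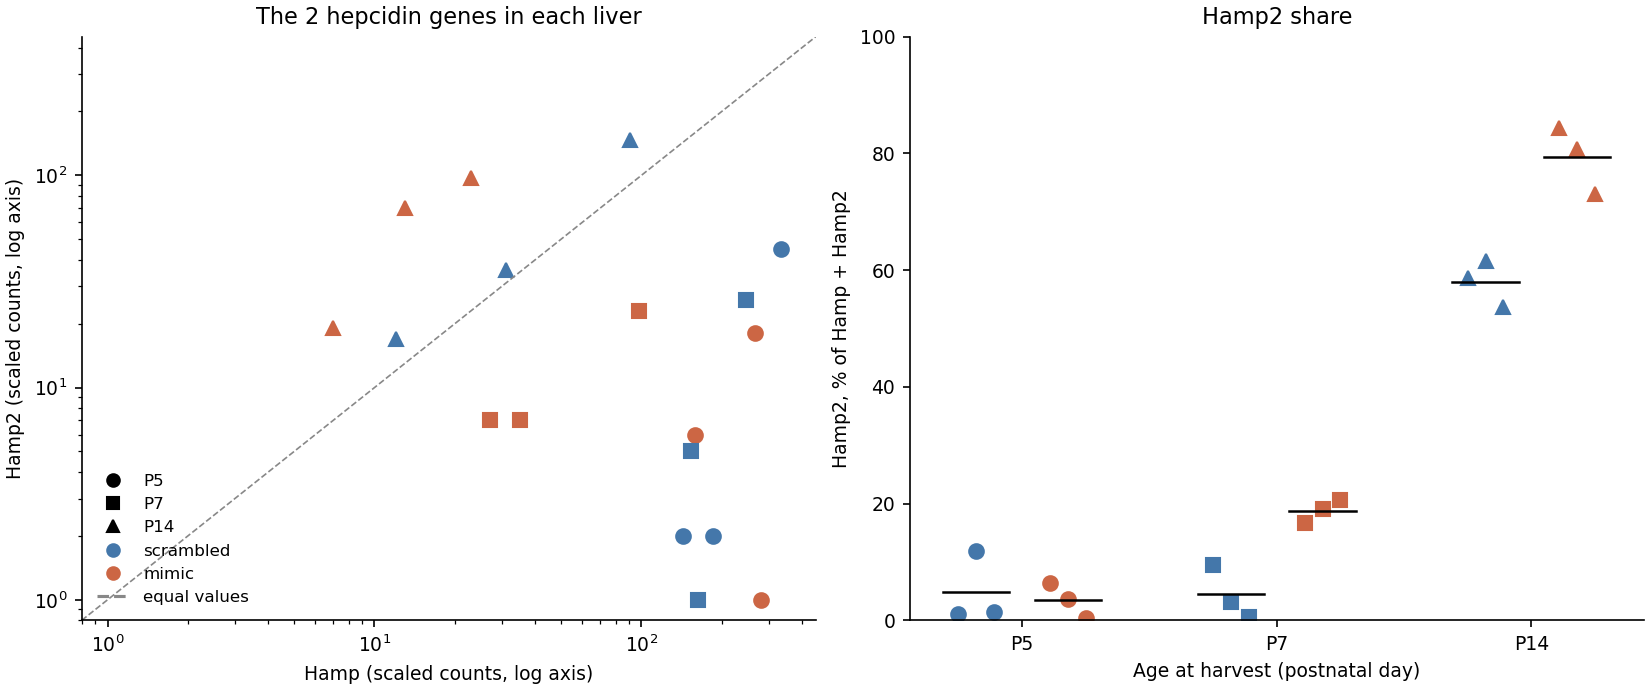
Left, Hamp2 against Hamp in each of the 18 livers (scaled counts, both axes logarithmic, dashed line at equal values). Right, Hamp2 as a percent of Hamp plus Hamp2 by age, 1 point per liver with black bars for means of 3. The 6 P14 livers lie above the dashed line, and the share reaches 84.3% in a P14 mimic liver.

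The study's main contrast was mimic against scrambled at each age. At the threshold 0 of the 10 iron genes differed on any day. At P5 0 of 10 were called (0% of all genes), with 0 of 10 at an unadjusted p under 0.05 (1.89% of all genes). Differences at P5 ran from -0.21 (Hamp2, SE 1.10) to 0.15 (Bmp6, SE 0.33) on the log2 scale, and the injections overlapped for all 10 genes (5.01% of all genes do not overlap). Hfe, the iron gene with a seed match, had differences of -0.02, -0.07 and -0.12 at P5, P7 and P14, and its 95% interval at P7 was -0.27 to 0.13.

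At P7 the differences of smallest unadjusted p were those of Hamp, Id1, Bmp6 and the uptake genes Tfrc and Slc11a2. Hamp was lower in each mimic liver (35, 98 and 27) than in any scrambled liver (247, 153 and 163), which is -1.99 on the log2 scale (SE 0.57, unadjusted p = 0.00249, limma adjusted p = 0.333). Its 95% interval ran from -3.18 to -0.80. Id1 read 296, 166 and 212 in scrambled and 131, 152 and 135 in mimic livers, a difference of -0.65 (SE 0.18, adjusted p = 0.333). Bmp6 read 52, 34 and 35 against 13, 23 and 33, a difference of -0.85 (SE 0.33, adjusted p = 0.507). Bmp6, Id1 and Hamp each read lower in every mimic liver than in any scrambled liver of this age, and 0 of the 3 passed the threshold. Hamp2, the other hepcidin gene, differed the other way (0.75, SE 1.10), with overlapping livers.

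The uptake genes differed the other way at P7. Tfrc read 1081, 1588 and 1771 in scrambled and 1882, 2192 and 1917 in mimic livers, which is 0.46 on the log2 scale (SE 0.16, limma adjusted p = 0.428). Slc11a2 (DMT1, which carries ferrous iron across membranes) read 362, 466 and 442 against 546, 515 and 544, a difference of 0.34 (SE 0.10, adjusted p = 0.333). Both were higher in each mimic liver than in any scrambled liver. The red cell list, whose cells carry much Tfrc, was above 0 in 14 of 15 genes (median 0.10), and its sum was 8097 in P7 scrambled replicate 1 against 9877 to 13591 in the other P7 livers. With its level as a covariate Tfrc differed by 0.41 (adjusted p = 0.335). Hamp2 differed by 0.75 (SE 1.10) and Tmprss6 by 0.11 (SE 0.14), with overlapping livers.

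At P7, 0 of 10 iron genes were called against 0.00709% of all genes. That share is 1 gene, of the skeletal muscle list and lower in mimic livers. The unadjusted p was under 0.05 for 5 of 10 iron genes, against 7.61% of all genes. The same 5 did not overlap between injections, against 14.0% of all genes; 3 were lower (7.44% of all genes) and 2 higher (6.52%). The genes were picked with earlier results of these data known, so these counts are a description. P7 scrambled replicate 1, whose muscle list sum was 1785 (410 in replicate 3, 50 in replicate 2), was the highest of its group in Hamp, Id1 and Bmp6 and the lowest in Tfrc and Slc11a2. Without it the differences were -1.78 for Hamp, -0.43 for Id1, -0.66 for Bmp6, 0.25 for Tfrc and 0.24 for Slc11a2. Without replicates 2 and 3, the libraries with many genes above 0, they were -2.42, -1.08, -1.23, 0.88 and 0.56, and that of Hamp2 turned to -1.23. Across all alternatives 0 iron genes were called.

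**Figure D3:**
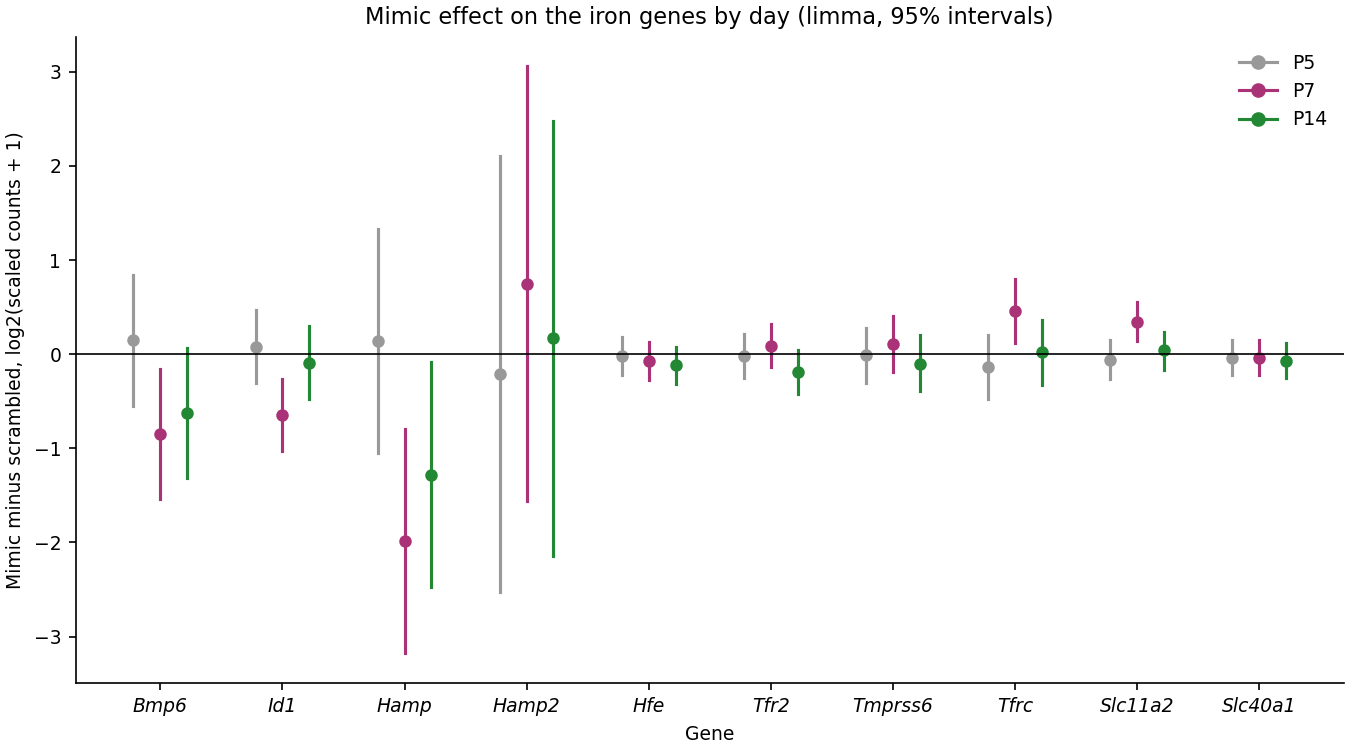
Difference between mimic and scrambled livers on the log2(scaled counts + 1) scale (y axis) for each iron gene (x axis) at P5, P7 and P14, with limma 95% intervals. At P7 the intervals of Bmp6, Id1 and Hamp lie below 0 and those of Tfrc and Slc11a2 above 0 before adjustment over all genes.

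At P14, 0 of 10 iron genes were called (0.0213% of all genes), and an unadjusted p under 0.05 was found for 1, Hamp (5.41% of all genes). Hamp differed by -1.28 on the log2 scale (SE 0.57, limma adjusted p = 0.885), and by -0.55 without P14 scrambled replicate 2 and -1.96 without P14 scrambled replicate 1. Its livers overlapped, with 12, 91 and 31 in scrambled and 13, 23 and 7 in mimic. Tfr2, the hepatocyte sensor of transferrin, read 1707, 1693 and 1509 in scrambled and 1321, 1471 and 1503 in mimic livers, a difference of -0.19 (SE 0.11, adjusted p = 0.969). It was the 1 iron gene of 10 whose injections did not overlap, against 9.31% of all genes. Bmp6 differed by -0.62 (SE 0.33), with 40 to 91 in scrambled and 38 to 48 in mimic livers. The red cell list was above 0 in 14 of 15 genes at P14, with a median difference of 0.98 and 0 genes called. With its level as a covariate the P14 differences were -2.49 for Hamp (adjusted p = 0.417), -0.99 for Bmp6 and -0.16 for Tfr2.

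Averaged over the 3 days, 0 of 10 were called (0.00709% of all genes) and 2, Hamp and Bmp6, had an unadjusted p under 0.05 (3.24% of all genes). The averaged difference was -1.04 for Hamp (SE 0.33, limma adjusted p = 1.000), -0.44 for Bmp6 (SE 0.19) and -0.22 for Id1 (SE 0.11). The test of whether the mimic difference varied between days called 0 of 10 (0.00709% of all genes), and the unadjusted p was under 0.05 for 4 of 10 (6.50% of all genes). Its limma adjusted p was 0.670 for Slc11a2, 0.704 for Id1 and 0.763 for Hamp and for Tfrc. So the courses of Hamp in mimic and scrambled livers were not shown to differ.

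The sensors, the brake and the exporter varied little between groups. Tfr2 ran between group means of 1432 (P14 mimic) and 1636 (P14 scrambled). Tmprss6, which encodes matriptase-2, ran between 1501 and 1762, and Hfe, a partner of the transferrin receptors, between 455 and 494. Slc40a1, the ferroportin gene, ran between 1320 (P14 mimic) and 1476 (P7 scrambled), with a coefficient of variation of 6.86% over 18 libraries, against 83.4% for Hamp and 133% for Hamp2. None of Tfr2, Tmprss6, Hfe, Slc40a1 and Slc11a2 was called in any comparison as fitted. Some alternatives called Slc11a2 higher from P7 to P14 in scrambled livers (0.26 with TMM, adjusted p = 0.0443, and 0.33 with the transcript length covariate, adjusted p = 0.0171). Without P7 scrambled replicates 2 and 3 that difference was 0.42. On only the libraries compared, Slc11a2 was called higher from P5 to P7 in mimic livers (adjusted p = 0.0434). Quantile normalization called Slc40a1 lower from P5 to P14 (-0.15, adjusted p = 0.0147) and from P7 to P14 in scrambled livers (-0.23, adjusted p = 0.0160). Leaving out P14 mimic replicate 2 called Slc40a1 lower from P7 to P14 in mimic livers (-0.24, adjusted p = 0.0382). Leaving out P5 scrambled replicate 2 called Tmprss6 higher from P5 to P14 (0.28, adjusted p = 0.00893). On only the libraries compared, Tmprss6 was called higher from P7 to P14 in scrambled livers (0.22, adjusted p = 0.0464). The 95% intervals of these 5 genes from P5 to P14, as fitted, stayed within -0.19 and 0.39 on the log2 scale.

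Per length and averaged over all 18 libraries, Tmprss6 and Tfr2 were the most abundant of the 10. At P5 Hamp was, with 537 scaled counts per kb in scrambled and 573 in mimic livers. Tfr2 had 505 and 492 there, and Tmprss6 485 and 470. Mean scaled counts per kb of the longest transcript over 18 libraries were 502 for Tmprss6, 500 for Tfr2, 356 for Slc40a1, 338 for Tfrc, 307 for Hamp, 177 for Id1, 134 for Hfe, 108 for Slc11a2, 67.1 for Hamp2 and 10.7 for Bmp6. Only 1.38% of tested genes were denser than Tmprss6. Hamp reached 0.812 scaled counts per base in its highest library, while the albumin gene Alb, with 1 denser gene in the table, averaged 1.03. Picard is named in the submitters' processing notes, without a word on whether duplicates were dropped. Dropping them would cap transcripts with many reads per base, short or long. Tmprss6 averaged 0.502, Tfr2 0.500, Slc40a1 0.356 and Tfrc 0.338 scaled counts per base. The part of such a cap in these levels was not tested. Its part in how little Tfr2, Tmprss6 and Slc40a1 varied between groups was not tested either.

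The rest of the BMP and SMAD pathway was followed in a list of 18 further genes. From P5 to P14, 8 rose and 1 fell, with a median log2 difference of 0.22 against 0.01 for all genes. That is 9 of 18 called, near the 48.8% of all genes. Atoh8, a BMP-responsive transcription factor, rose by 1.83 (SE 0.19, limma adjusted p = 1.92e-07) on the log2 scale, from group means of 39.3 and 44.0 to 159 and 146 scaled counts in scrambled and mimic livers. Neo1, encoding the hemojuvelin partner neogenin, rose by 0.64 (SE 0.10). The receptors Acvr2a and Bmpr1a rose by 0.50 (SE 0.10) and 0.41 (SE 0.08). Id2, a relative of Id1, fell by 0.25. So Atoh8 rose while Hamp and Id1 fell in the same livers. At P7 the mimic differences of smallest p in this list were -0.58 for Atoh8 (SE 0.27, adjusted p = 0.623), -0.29 for Id3 (SE 0.14, adjusted p = 0.653) and -0.27 for Bmp2 (SE 0.14, adjusted p = 0.706). Atoh8 read 80, 36 and 39 in scrambled livers, and without replicate 1 of that group its difference was -0.22, that of Bmp2 -0.14. The endothelial list, where Bmp6 is made, summed to 8625 to 9433 in P7 scrambled and 7225 to 8023 in P7 mimic livers, which do not overlap. Of its genes 12 of 12 had differences below 0 (median -0.22) with 0 called, against 51.2% of all genes below 0. The Kupffer cell list was also below 0 in 12 of 12 genes (median -0.13) with 0 called. The part of the endothelial list in the Bmp6 values was not tested.

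Genes of iron transport and storage (18 tested) divided with age, 3 higher and 5 lower, with a median of 0.01, the same as over all genes, of which 48.8% were called. The lower ones were led by Slc25a37, the mitochondrial iron importer mitoferrin of erythroid cells, which fell by 2.36 on the log2 scale (SE 0.11, limma adjusted p = 3.10e-12). Ncoa4, which delivers ferritin to lysosomes, fell by 0.85 (SE 0.11). Hmox1, which breaks down heme, fell by 0.64 (SE 0.08), and Slc48a1, a heme transporter, fell by 0.55 (SE 0.06). The Kupffer cell list, macrophages that recycle heme iron, fell in 9 of 12 genes with a median of -0.37, and its part was not tested. Among the iron regulatory protein genes Aco1 rose by 0.23 (SE 0.07, adjusted p = 0.0144), 1 of 3 called.

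Of 13 other known inputs to hepcidin, 4 rose and 4 fell from P5 to P14, beside 23.9% of all genes higher and 24.8% lower. Their median was 0.13. Erfe, encoding the erythroblast hormone erythroferrone that suppresses hepcidin, fell by 3.90 (SE 0.34, limma adjusted p = 2.47e-08), from group means of 54.0 and 63.3 to 2.67 and 3.33 scaled counts. Epor, the erythropoietin receptor, fell by 2.56 (SE 0.13). Jak2, a kinase of cytokine receptors, fell by 0.58 (SE 0.09). Furin, the protease that processes prohepcidin, rose by 0.40 (SE 0.07). Hamp thus fell over the same days as the transcript of its erythroid suppressor. Erfe, Epor and Slc25a37 are expressed by erythroid cells, and beside them the median of the red cell list was -4.92. At P7, 0 genes of the BMP and SMAD, iron transport and storage, iron regulatory protein and hepcidin input lists were called between the injections.

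**Figure D4:**
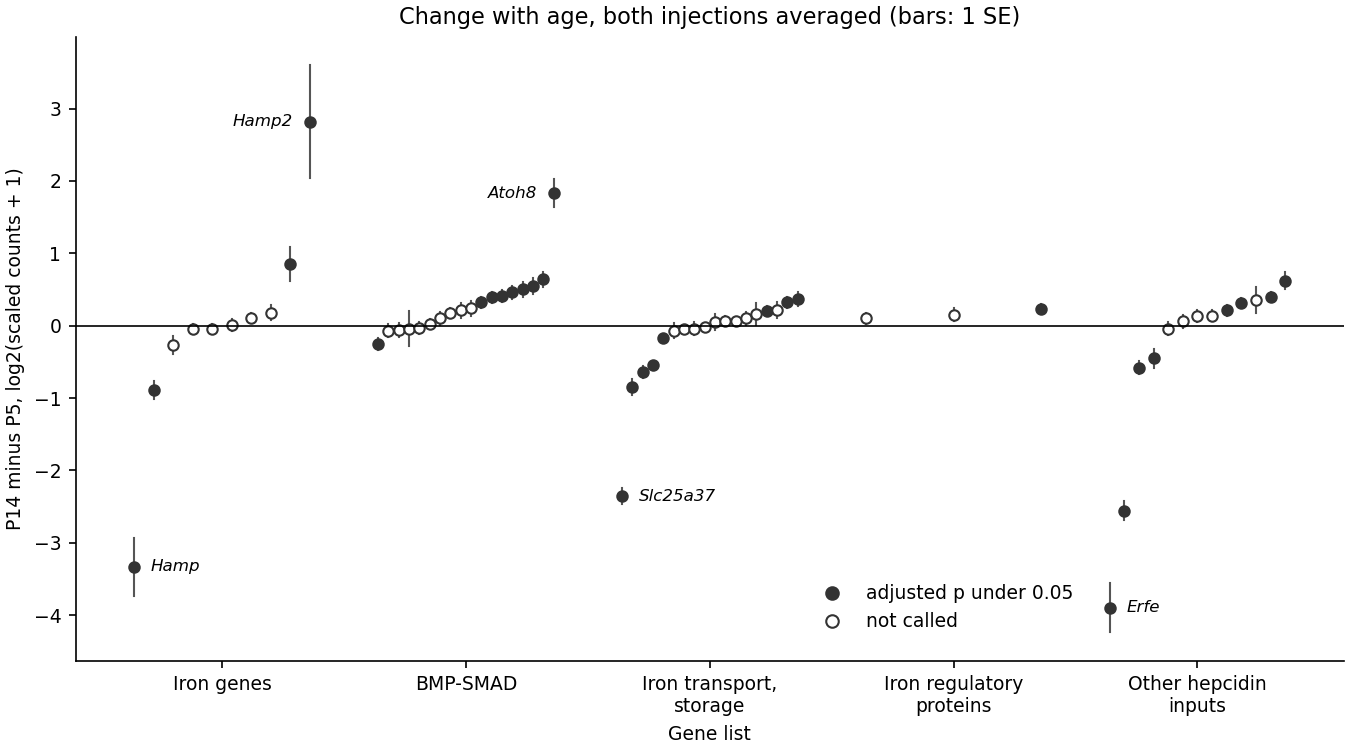
Difference between P14 and P5 over both injections on the log2(scaled counts + 1) scale (y axis) for each tested gene of the 5 gene groups (x axis), sorted within a group, with bars of 1 SE and filled points for limma adjusted p under 0.05. Hamp at -3.33 and Erfe at -3.90 lie lowest, and Hamp2 at 2.82 and Atoh8 at 1.83 highest.

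The genes whose pattern over the 18 libraries was most like that of an iron gene were found by Pearson correlation on the log2 scale among 14103 tested genes. The libraries share age groups and injections, so these are descriptions. For Hamp they were Maged2 (r = 0.904), Dram1 (0.894) and Stxbp2 (0.892). Maged2 ran from a mean of 479 in P5 mimic to 316 in P14 mimic livers, with its group means in the same order as those of Hamp. For Tfrc they were Galnt1 (0.864), Ppwd1 (0.799) and Gpbp1 (0.798). For Slc40a1 they were Smpdl3a (0.758), Vps35 (0.754) and Acsl5 (0.732). For Bmp6 they were Acan (0.809), Olfml2a (0.776) and Zfp775 (0.772). Acan, the aggrecan gene, averaged 68.3 ± 43.6 (SD, n = 3) in P14 scrambled and 5.67 ± 5.03 in P14 mimic livers.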

How the data were processed

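RNA of the livers was sequenced as 18 stranded mRNA libraries, per the labels' protocols. Per the submitters' processing notes the authors' tools included featureCounts 1.6.5, STAR 2.6.1d, DESeq2 1.26.0, Trimmomatic 0.39 and Picard 2.21.7, on the build mm10 (GRCm38). The deposited values are whole-number scores, judged from the values to be gene counts that the authors scaled by 1 factor for each library and then rounded, here named scaled counts. As raw counts they cannot be used, so no count model was fitted. For genes with a mean of 10 or more (14104 of 31165), limma 3.58.1 (R 4.3.3) was fitted to log2(value + 1) over all 18 libraries with 1 mean per group and a trend of variance on level (degrees of freedom were 12.0 residual and 6.49 prior). Folds of low genes are understated on this scale. Adjusted p-values are Benjamini-Hochberg over all genes tested, with a threshold of 0.05. The Hamp and Hamp2 sum and share were compared by exact permutation. On simulated data for the P7 comparison (14073 genes), the share of changed genes recovered was 38.8% at 1.5-fold, 79.1% at 2-fold and 93.9% at 4-fold. There 7 unchanged genes were called. The simulated noise was drawn for each gene on its own, with a spread averaged over the groups. It held no differences shared across a library, so these shares do not measure recovery in the real P7 livers.

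The genes described and the gene lists were chosen with earlier results of these data known. Named list genes are up to 4 per list with the smallest p in a comparison, and Id2 was named after its value was seen. For Hamp, Tfrc, Slc40a1 and Bmp6 the 3 genes of highest correlation are named. Sequences come from RefSeq (GRCm38.p6) and GENCODE M21. Of the 10 genes, 6 matched the table of promoters. Some sequence is not reported here. Other settings tried were no filter, a mean of 50 or more, a pseudocount of 5, TMM, quantile normalization, only the libraries compared, no trend, a replicate block, a red cell covariate, a transcript length covariate, each of the 18 libraries left out, and P7 scrambled replicates 2 and 3 left out together.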

Additional observations from a re-analysis of the deposited data

How the results depend on the processing

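Of the 10 genes Hamp2, Hamp and Bmp6 had the largest SEs within a day (1.10, 0.57 and 0.33). The 5 mimic comparisons called 0 iron genes under every alternative. Iron genes called from P7 to P14 in scrambled livers (2) were 1 with no filter, 4 with quantile normalization, 1 with no trend and 0 with the red cell covariate, and 1 to 3 with 1 library left out. From P5 to P7 in mimic livers (2) they were 0 with the length covariate and 0 to 2 with 1 library left out. From P7 to P14 in mimic livers (3) they were 1 with no filter, 0 with no trend, 0 with the red cell covariate, 0 with the length covariate and 0 to 3 with 1 library left out. From P5 to P14 (4) they were at most 6 under any setting, and 4 to 5 with 1 library left out. Tfrc was called lower there with quantile normalization (-0.38, adjusted p = 0.00294) and on only the libraries compared (-0.27, adjusted p = 0.0421). Iron genes called were 2 with a mean of 50 or more, which leaves Hamp2 and Bmp6 untested, and 0 with the red cell covariate. That covariate was 9.44 to 9.96 at P5 and 4.03 to 6.09 at P14 and turned Hamp to 3.42 (P14 against P7, scrambled), 3.07 (mimic) and 2.59 (P14 against P5), Tfrc to 1.17 (P14 against P7, mimic) and 1.73 (P14 against P5), Hmox1 to 0.02, Erfe to 0.75 and Jak2 to 0.10. For P7 against P5 in scrambled livers, Hamp turned to 0.52 with the red cell covariate, 0.44 with the length covariate and 0.26 without P7 scrambled replicates 2 and 3, with -0.44 to 0.17 over single libraries left out, and Id1 turned to 0.06 and 0.13 with the length covariate and without those replicates. Hamp2 ran from -0.99 to 1.10 at P5 and from -0.14 to 1.74 at P7 with 1 library left out, and was -1.23 at P7 without P7 scrambled replicates 2 and 3. With 1 library left out the hepcidin sum ran from -0.17 to 0.52 at P5, -0.97 to 0.52 at P14, -0.47 to 0.22 for P7 against P5 in scrambled and -0.26 to 0.83 for P14 against P7 in mimic livers. The Hamp2 share ran from -3.20 to 2.22 points at P5 and from -2.90 to 3.21 for P7 against P5 in scrambled livers. The causes of these changes were not tested.

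Over all genes, calls under the settings other than single libraries left out ran from 0 to 19 at P7 (1 as reported), 1 to 11 at P14 (3), 0 to 12 averaged (1), 1 to 12 between days (1), 0 to 113 for P7 against P5 in scrambled (0; 2342 without P5 scrambled replicate 1), 1 to 2653 in mimic (1416; 35 without P5 mimic replicate 3), 0 to 5049 for P14 against P7 in scrambled (4765; 1508 without P7 scrambled replicates 2 and 3), 0 to 4559 in mimic (4163; 2448 without P7 mimic replicate 1, and lower by over 1.5 times also without P7 mimic replicate 3 or P14 mimic replicate 1) and 0 to 7678 for P14 against P5 (6878). The share of calls that were higher moved from 66.5 to 80.6% with TMM for P7 against P5 in mimic livers, and from 42.0 to 53.5% with quantile normalization for P14 against P7 there. Same-numbered mimic and scrambled libraries did not deviate together (r from -0.463 to 0.247, over 0.1 in 3 of 9 pairs). With the replicate number as a block, iron genes called were 0 in each mimic comparison, 2, 2 and 2 in the steps with calls, and 5 from P5 to P14, where Tfrc passed (adjusted p = 0.0272). From P7 to P14 the block lost Id1 (0.0515) and gained Hamp2 (0.0233) in scrambled livers and lost Bmp6 (0.0577) in mimic livers.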
